A study of Mus musculus with 2 samples.

Results

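The genes described are 9 transcripts commonly read as a record of BMP signaling: the 4 *Id* genes *Id1*, *Id2*, *Id3* and *Id4*, the inhibitory SMAD genes *Smad6* and *Smad7*, the decoy receptor gene *Bambi*, and the homeobox genes *Msx1* and *Msx2*. They were chosen by name among the 30011 genes named on the arrays, with earlier results of these data known. Each was represented by 1 probe, printed in 4 spots on each array. Of the 9 genes, 8 gave a signal that could be tested. *Bambi* was not well above background in the control pools.

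Bone morphogenetic proteins (BMPs) are secreted ligands that bind paired type I and type II receptors, which phosphorylate SMAD1, SMAD5 and SMAD9. These join SMAD4, enter the nucleus and activate target genes, among which the *Id* genes and the inhibitory SMADs are among the most direct. ID proteins are helix-loop-helix factors without a DNA-binding region that hold E proteins away from DNA, whereas SMAD6, SMAD7 and BAMBI dampen the receptors and so act as negative feedback. In the developing ureter, *Bmp4* is expressed in the mesenchyme around the epithelial tube, and hedgehog signaling from that epithelium is known to act on the same mesenchyme.

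The arrays addressed the question which transcripts depend on Sonic hedgehog (SHH) signaling in the ureter at birth. Ureters of wildtype NMRI mice were explanted at postnatal day 0 and cultured for 18 h either with 10 µM cyclopamine, an alkaloid that inhibits the hedgehog signal transducer SMO, or with the solvent DMF diluted 1:1000. Per the methods of the study, each RNA sample came from a pool of 5 or 6 ureters, all of one sex. On each of 2 two-colour arrays a cyclopamine pool was hybridised against a control pool of the same sex: replicate 1 held female pools with cyclopamine in the AlexaFluor647 channel, and replicate 2 held male pools with the dyes exchanged. What belongs to the sex of the pools, to the dyes and to the replicate thus cannot be told apart. A channel source entry of the labels names the WNT secretion inhibitor IWP-2, whereas titles, treatment entries and protocol name cyclopamine. The hedgehog targets showed the following: *Gli1*, a transcription factor gene induced by SHH, read 7771 and 2182 on replicate 1 and 1236 and 290 on replicate 2, control first (mean log2 ratio -1.96 ± 0.18, SD, n = 2 arrays, limma adjusted p = 1.76e-08). *Ptch1*, the gene of the SHH receptor, had a mean log2 ratio of -1.31 ± 0.25 (limma adjusted p = 0.000248).

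The windows around the start sites of the *Id* and inhibitory SMAD genes are shown because SMAD complexes are known to bind short DNA elements near these genes. RefSeq promoter windows, 250 bases before to 50 bases after the gene start on GRCm38.p6, were at hand for *Id2* (chr12:25096043-25096342, minus strand), *Id3* (chr4:136143572-136143871, plus strand), *Id4* (chr13:48260866-48261165, plus strand), *Smad6* (chr9:64022010-64022309, minus strand), *Msx1* and *Msx2*. Capitals mark GGCGCC, the GC-rich element bound by SMAD1 and SMAD5, and GTCT with its reverse complement AGAC, the core of the SMAD box. Where the SMAD box and its reverse complement adjoin, they form the palindrome GTCTAGAC.
Id2: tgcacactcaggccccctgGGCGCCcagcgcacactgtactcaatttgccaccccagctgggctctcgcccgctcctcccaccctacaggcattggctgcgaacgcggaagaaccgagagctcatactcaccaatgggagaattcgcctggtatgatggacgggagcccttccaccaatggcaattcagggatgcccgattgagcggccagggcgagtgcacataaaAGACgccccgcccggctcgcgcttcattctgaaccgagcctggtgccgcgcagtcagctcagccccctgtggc
Id3: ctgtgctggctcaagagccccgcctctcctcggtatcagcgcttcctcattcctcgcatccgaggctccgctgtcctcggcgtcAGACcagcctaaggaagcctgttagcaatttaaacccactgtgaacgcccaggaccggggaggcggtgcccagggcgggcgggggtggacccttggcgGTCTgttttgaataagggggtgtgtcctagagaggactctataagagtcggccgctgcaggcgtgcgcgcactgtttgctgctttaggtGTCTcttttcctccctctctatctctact
Id4: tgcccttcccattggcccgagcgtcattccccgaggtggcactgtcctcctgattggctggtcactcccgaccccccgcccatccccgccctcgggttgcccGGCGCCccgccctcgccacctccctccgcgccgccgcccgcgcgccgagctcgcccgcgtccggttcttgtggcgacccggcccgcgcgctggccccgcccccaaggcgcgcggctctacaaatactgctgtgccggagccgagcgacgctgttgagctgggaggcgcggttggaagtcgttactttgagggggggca
Smad6: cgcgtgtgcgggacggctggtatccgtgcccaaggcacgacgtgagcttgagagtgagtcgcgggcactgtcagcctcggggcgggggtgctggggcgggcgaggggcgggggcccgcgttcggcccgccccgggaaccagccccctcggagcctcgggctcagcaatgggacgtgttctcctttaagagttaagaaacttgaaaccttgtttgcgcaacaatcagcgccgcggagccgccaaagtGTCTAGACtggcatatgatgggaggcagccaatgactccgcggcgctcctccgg

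In these windows GGCGCC lay 231 bases before the start of *Id2* and 148 bases before that of *Id4*, and was held by 2 of the 6 windows against 11.9% of all 32851 windows of this length. GTCT or AGAC occurred in 4 of the 6 windows (*Id2*, *Id3*, *Smad6* and *Msx2*) against 88.0% of all windows. The palindrome GTCTAGAC began 4 bases before the start of *Smad6* and is found in 0.213% of all windows. None of the 6 windows held GGCGCC and GTCT in the composite order, 5 bases apart, which 0.0731% of all windows hold. Such matches are letters in a window and do not show that the sites are bound. No window was at hand for *Id1*, *Smad7* and *Bambi*. Bases further upstream than the windows were not searched, so the absence of a match holds for the windows only.

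Among the *Id* genes, *Id1*, *Id2* and *Id3* had the lowest mean ratios of cyclopamine to control of the tested BMP response genes. That of *Id4* was higher, at a mean log2 ratio of -0.19. None of the 4 passed the test across all genes. All values are processed spot intensities in arbitrary units, which are comparable between the 2 channels of an array but not between arrays, and ratios are cyclopamine over control on the log2 scale.

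**Figure D1:**
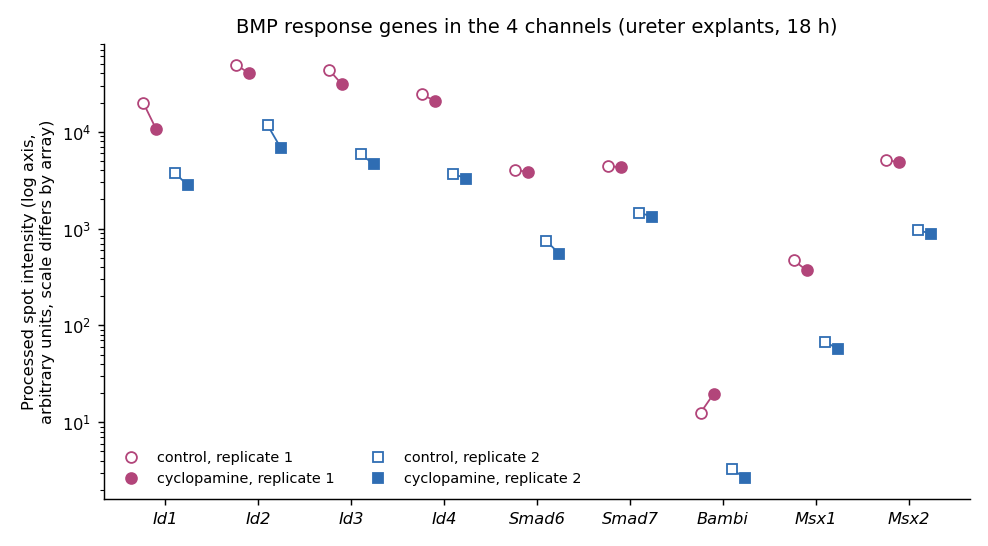
Processed spot intensity (log axis, arbitrary units) of the 9 BMP response genes in the control pool (open symbols) and the cyclopamine pool (filled symbols) of replicate 1 (circles) and replicate 2 (squares), with lines joining the pools of an array. In the 8 genes other than *Bambi* the cyclopamine pool lies below the control pool on both arrays.

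*Id1* (probe at chr2:152563083-152563142, mm9) read 20036 for the control pool and 10646 for the cyclopamine pool on replicate 1. On replicate 2 the readings were 3773 and 2795. The cyclopamine pool was the lower one on both arrays, and the log2 ratio of -0.91 on replicate 1 was larger in size than that of -0.43 on replicate 2. The mean log2 ratio was -0.67 ± 0.34 (SD, n = 2 arrays), with a 95% interval of the limma fit from -1.13 to -0.21. The unadjusted p of limma was 0.00477 and the Benjamini-Hochberg adjusted p over all tested probes was 0.182.

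*Id2* (chr12:25778904-25778963, mm9) read 49274 in the control and 40157 in the cyclopamine pool on replicate 1, and 11662 and 6843 on replicate 2. Here the order of the arrays was the opposite of that for *Id1*, with a log2 ratio of -0.30 on replicate 1 and -0.77 on replicate 2. The 4 spots of the *Id2* probe scattered with an SD of 0.17 (log2) on replicate 2, the widest scatter among the tested BMP response genes. The mean log2 ratio was -0.53 ± 0.34, with an interval from -0.99 to -0.074, an unadjusted limma p of 0.0236 and an adjusted p of 0.399.

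*Id3* (chr4:135700075-135700249, mm9) read 43721 and 30811 on replicate 1 and 5922 and 4621 on replicate 2, control first. Its ratios of -0.50 and -0.36 lay closer together than those of *Id1* and *Id2*. The mean was -0.43 ± 0.10, and the interval from -0.88 to 0.022 included 0 (limma adjusted p = 0.567). *Id4* (chr13:48358668-48358727, mm9) read 24255 and 20867 on replicate 1 and 3658 and 3286 on replicate 2. Its mean log2 ratio of -0.19 ± 0.04 had an interval from -0.64 to 0.27 (limma adjusted p = 0.836). In the order of the *Id* genes by mean ratio (*Id1*, *Id2*, *Id3*, *Id4*), the intervals of neighbours overlapped throughout. The median of the 4 mean ratios was -0.48. In RNA of whole explants, fewer cells that express a gene and less of its RNA per cell cannot be told apart.

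The inhibitory SMADs differed little between the pools on replicate 1. *Smad6*, whose product acts mainly against BMP receptors (probe at chr9:63800980-63801039, mm9), read 4000 in the control and 3877 in the cyclopamine pool on replicate 1. On replicate 2 it read 743 and 549. The log2 ratio was therefore -0.045 on replicate 1 and -0.44 on replicate 2, and the mean of -0.24 ± 0.28 had an interval from -0.70 to 0.22 (limma adjusted p = 0.776). *Smad7*, whose product acts against both TGF-β and BMP receptors, read 4401 and 4308 on replicate 1 and 1462 and 1325 on replicate 2. Its mean ratio of -0.086 ± 0.078 was the nearest to 0 among the tested BMP response genes, with an interval from -0.54 to 0.37 (limma adjusted p = 0.935).

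*Bambi*, which encodes a receptor-like protein without a kinase domain, was read at the level of background in most channels. On both arrays 0 of its 4 control spots were well above background. In the cyclopamine pools 4 of 4 spots were well above background on replicate 1 and 0 of 4 on replicate 2. The pools read 12.6 (control) and 19.7 (cyclopamine) on replicate 1, and 3.27 and 2.64 on replicate 2, so the pools differed in opposite directions. No fold change and no test are given for this gene.

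Of the MSX factors, transcriptional repressors that are induced by BMPs in many mesenchymal tissues, *Msx1* (chr5:38212305-38212364, mm9) read 472 and 371 on replicate 1 and 68.2 and 56.7 on replicate 2, control first. The mean log2 ratio was -0.31 ± 0.06, with an interval from -0.76 to 0.15 (limma adjusted p = 0.705). *Msx2* (chr13:53562318-53562377, mm9) read 5091 and 4848 on replicate 1 and 971 and 877 on replicate 2. Its ratios of -0.071 and -0.15 gave a mean of -0.11 ± 0.05, with an interval from -0.56 to 0.34 (limma adjusted p = 0.915). The ratios of both MSX genes lay close together on the 2 arrays.

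**Figure D2:**
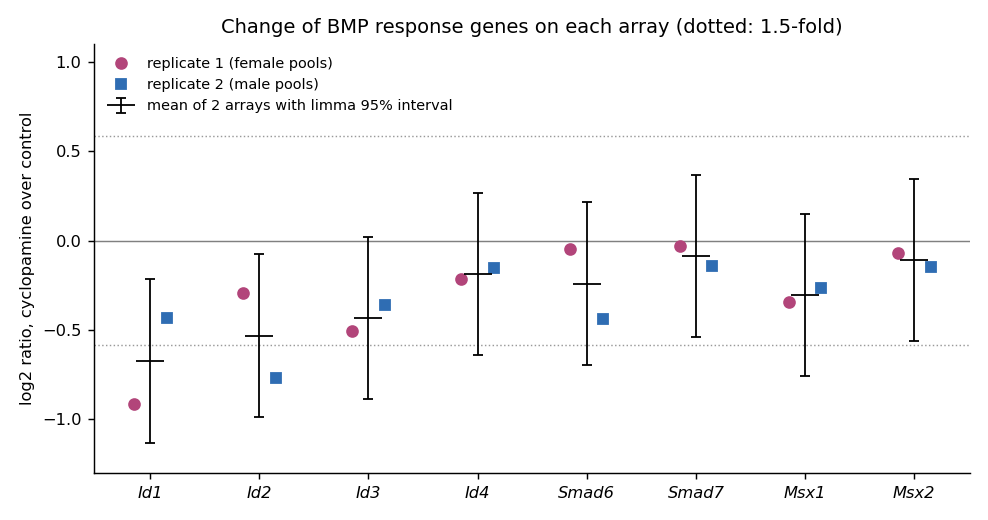
Log2 ratio of cyclopamine over control for the 8 tested BMP response genes on replicate 1 (circles) and replicate 2 (squares), with the mean and the 95% interval of the limma fit (bars). All 16 ratios lie below 0, 1 gene passes the dotted 1.5-fold line on each array, and the intervals of *Id1* and *Id2* lie below 0.

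As a group, 8 of 8 tested BMP response genes were lower in the cyclopamine pool on both arrays, where 29% of the 19402 genes tested were lower on both and 28.6% were higher on both. The median of their mean log2 ratios was -0.27, against -0.0055 for all tested genes. It was -0.26 on replicate 1 and -0.31 on replicate 2. On replicate 2 the 8 ratios lay between percentiles 1.67 and 21.1 of all tested genes, and on replicate 1 between percentiles 1.85 and 47.6. None of the 8 was called by limma at an adjusted p under 0.05, a limit that 0.866% of all tested genes passed with a lower and 0.438% with a higher value. At an unadjusted p under 0.05 the count was 2, *Id1* and *Id2*. None passed the filter modelled on that of the study, which asks for control readings over 100 and for 1.5-fold or more in one direction, each time on both arrays. Of the 13661 genes with that control intensity, 0.63% passed the filter as lower and 0.212% as higher. Of the 8 genes, 7 had the control intensity, with *Msx1* below it on replicate 2. *Id1* alone passed 1.5-fold on replicate 1 and *Id2* alone on replicate 2. With 2 arrays, the median interval over all tested genes reached 0.46 (log2) to either side of the mean, so changes of the size seen in most of these genes were within the error of the design.

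The ratios also varied with the length of a gene. Across the 16020 tested genes with a known length, the log2 ratio correlated with genomic length at a Spearman's rho of 0.44 on replicate 1 and of 0.035 on replicate 2, a description across genes, which are not independent replicates. Of the 1005 genes shorter than 2500 bp, 52.5% were lower on both arrays, with a median ratio of -0.36 on replicate 1 and -0.060 on replicate 2. Of the 1408 genes between 2500 and 5000 bp, 45.1% were lower on both, and of the 2067 genes over 100000 bp 14.8% were. The BMP response genes are mostly short: *Id1* spans 1160 bp, *Id3* 1571 bp, *Id2* 2294 bp, *Msx1* 4095 bp and *Id4* 4913 bp, so 5 of the 8 lie under 5000 bp, while *Msx2* spans 5900 bp, *Smad7* 28571 bp and *Smad6* 69010 bp (GRCm38).

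**Figure D3:**
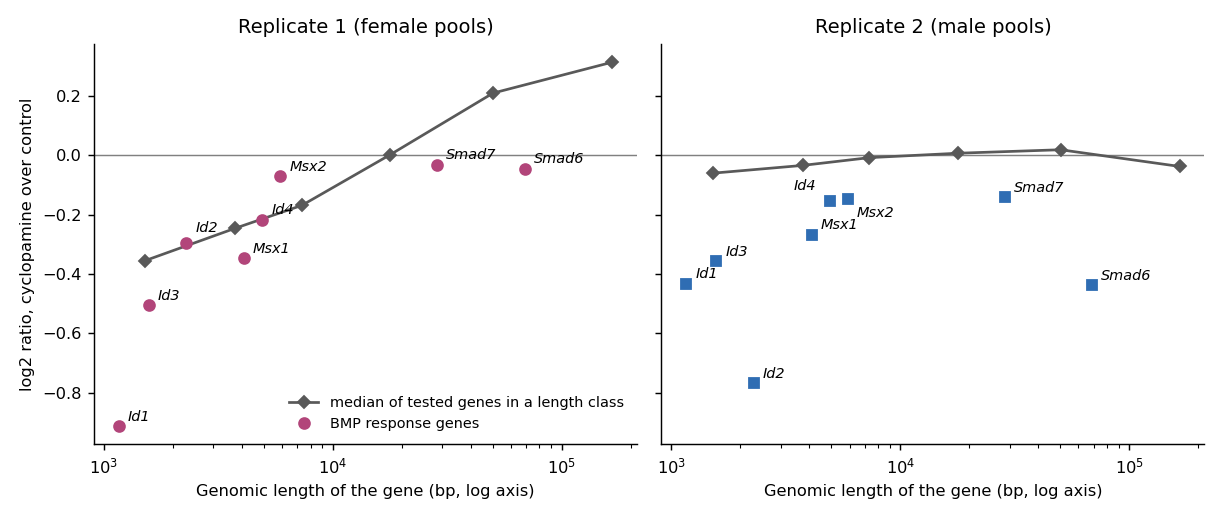
Log2 ratio of cyclopamine over control (vertical) against the genomic length of the gene (horizontal, bp, log axis) on replicate 1 (left) and replicate 2 (right), with the median of all tested genes in each of 6 length classes (diamonds). On replicate 1 the class medians run from -0.36 to 0.31 and several BMP response genes lie near them, whereas on replicate 2 all 8 lie below the medians.

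When the trend along gene length was removed within each array, all 8 genes stayed below 0 on replicate 2 and 5 of 8 on replicate 1. *Id1* then had log2 ratios of -0.50 and -0.37, *Id3* of -0.12 and -0.30 and *Smad6* of -0.24 and -0.46 on replicates 1 and 2. *Smad7* had -0.076 and -0.17, and *Msx1* -0.065 and -0.24. These 5 genes were lower on both arrays with and without the correction. *Id2* had 0.051 on replicate 1 against -0.73 on replicate 2, *Id4* had 0.042 and -0.13, and *Msx2* had 0.17 and -0.13, so that the arrays differed in sign for these 3 genes. The median over the 8 genes was -0.18 after the correction. What part gene length has in the direction of the BMP response genes was not tested beyond this.

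**Figure D4:**
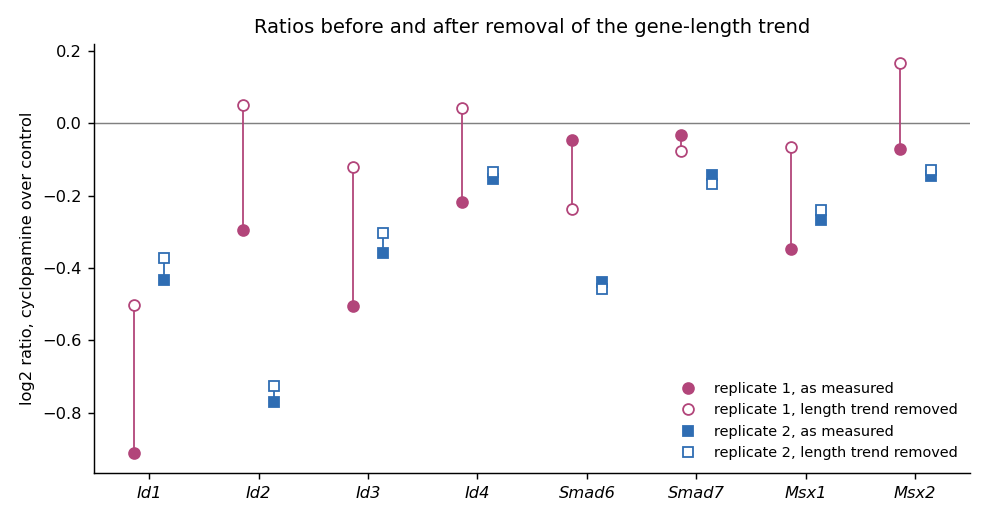
Log2 ratio of cyclopamine over control of the 8 tested BMP response genes as measured (filled) and after removal of the gene-length trend of the array (open) on replicate 1 (circles) and replicate 2 (squares). On replicate 1 *Id2*, *Id4* and *Msx2* move above 0, while on replicate 2 every gene stays below 0.

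Among the genes upstream of the response, the BMP ligands held the largest difference. *Bmp4* read 27630 and 15523 on replicate 1 and 3473 and 2026 on replicate 2, control first, and was the only ligand to pass the filter of 1.5-fold on both arrays. Its mean log2 ratio of -0.80 ± 0.04 narrowly missed the limma limit (adjusted p = 0.0589, interval from -1.26 to -0.35). Of the 7 ligands tested out of 10, 1 was lower and 3 were higher on both arrays, 0 were called by limma in either direction, and the median ratio was 0.056. Of the other ligands with one sign on both arrays, the largest mean ratios were those of *Gdf10*, at 0.69 on replicate 1 and 0.24 on replicate 2, and *Bmp7*, at 0.11 and 0.30.

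Receptors and receptor-activated SMADs, which carry the signal to the nucleus, split between the arrays: of 14 tested out of 15, 11 had opposite signs on the 2 arrays, 2 were lower and 1 was higher on both, and 0 were called by limma. *Smad9*, which is itself induced by BMP signaling in many cells, read 856 and 669 on replicate 1 and 159 and 79.0 on replicate 2, control first (mean log2 ratio -0.68 ± 0.46, limma adjusted p = 0.176). *Acvr2a*, a type II receptor gene, had a mean ratio of 0.43 ± 0.25 (adjusted p = 0.573). Of the 17 antagonists and modulators, 7 were lower and 6 higher on both arrays and 0 were called by limma. *Nbl1*, which encodes a secreted BMP antagonist, had ratios of -0.50 on both arrays (mean -0.50 ± 0.01, limma adjusted p = 0.448).

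The other BMP response genes did not share the direction that the 8 tested *Id*, inhibitory SMAD and MSX genes had as measured. Of 17 tested out of 18, 4 were lower and 4 higher on both arrays, and the median ratio was -0.0055. A single one, *Zfp423*, the gene of a zinc finger partner of SMADs, fell by the limma test (mean log2 ratio -0.89 ± 0.76, adjusted p = 0.0403), with ratios of -0.35 on replicate 1 and -1.43 on replicate 2. *Zfp423* had 3 tested probes, which gave mean ratios of -0.89, -0.80 and -0.28, and the call was lost over the mean of all probes (adjusted p = 0.169) and with normexp background correction and an offset of 50 (adjusted p = 0.186). *Sp7*, an osteoblast transcription factor gene that was dim here, had a mean ratio of -0.82 ± 0.65 (adjusted p = 0.0657), which was -0.32 with normexp and an offset of 50, and *Snai2*, of a zinc finger repressor, of 0.30 ± 0.10. *Gata6*, a zinc finger transcription factor gene, had 0.75 on replicate 1 and -0.13 on replicate 2 (adjusted p = 0.714).

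The partners of the BMP response genes gave no call. All 3 E protein genes, *Tcf3*, *Tcf4* and *Tcf12*, whose products are bound by ID proteins, were higher in the cyclopamine pool on replicate 1 and lower on replicate 2, with mean ratios between 0.086 and 0.30. Of 11 ligases and co-factors of the inhibitory SMADs, 8 were higher and 1 was lower on both arrays. Of all tested genes, 28.6% were higher on both. The list median was 0.16, with *Smurf2* at 0.42 ± 0.47 and *Rnf111* at 0.39 ± 0.41 the largest. *Smurf2* spans 100687 bp and *Rnf111* 78417 bp. On replicate 1 genes over 100000 bp had a median of 0.31, and genes of 30000 to 100000 bp one of 0.21. The part of gene length in this list was not tested. Of 10 TGF-β response genes, read to set the BMP branch beside the related TGF-β branch, 4 were lower and 3 higher on both arrays (median 0.035), and the largest ratios were those of *Tgfbi* at 0.42 ± 0.48 and *Ccn1* at -0.42 ± 0.53. By contrast 5 of the 7 SHH targets were called lower by limma and 6 were lower on both arrays (median -1.15). They were *Gli1*, *Ptch1*, the forkhead genes *Foxl1* (-2.61 ± 0.50) and *Foxf1* (-0.98 ± 0.41), and *Hhip*, of a hedgehog-binding membrane protein (-1.15 ± 1.19). *Foxf2*, at -0.82 on replicate 1 and -0.57 on replicate 2, passed neither the limma limit (adjusted p = 0.147) nor 1.5-fold on replicate 2.

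**Figure D5:**
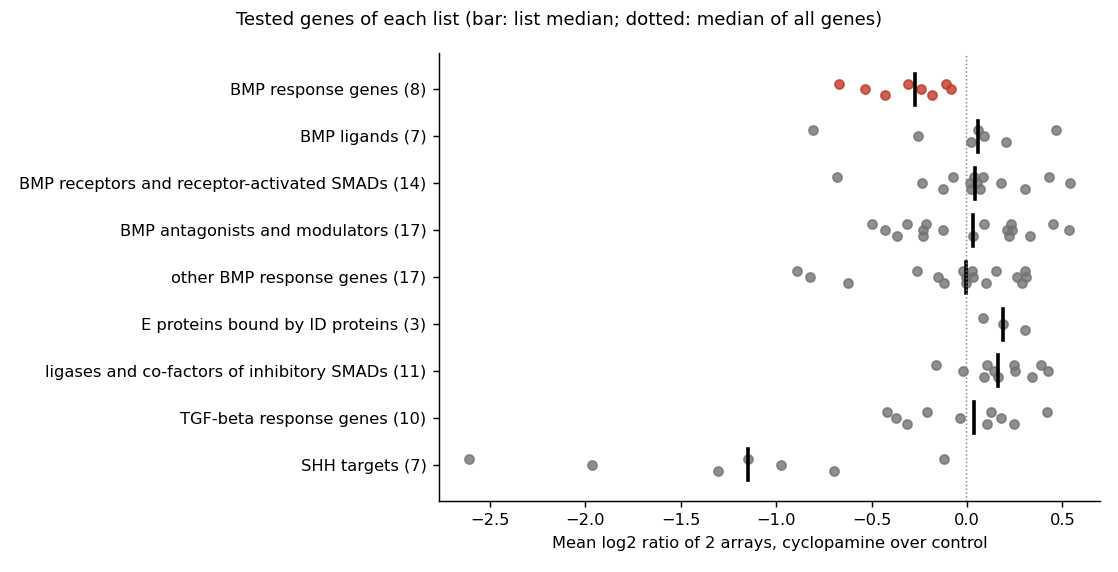
Mean log2 ratio of 2 arrays, cyclopamine over control, of each tested gene (points) in the BMP response genes and in 8 further lists, with the number of genes in brackets, the list median (bar) and the median of all tested genes (dotted line). The BMP response genes have a median of -0.27 and all lie below 0, the E protein genes lie above 0, the SHH targets lie below 0 with a median of -1.15, and the other 6 lists span 0.

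Markers of some cell types in the explants moved to some extent beside the BMP response genes. Of 9 smooth muscle markers, 5 were lower and 0 higher on both arrays, where 29% of all tested genes were lower on both. *Myh11*, *Smtn*, *Myocd* and *Lmod1* had opposite signs on the 2 arrays. The list median was -0.18, at -0.0046 on replicate 1 and -0.36 on replicate 2. *Actg2*, of an actin of smooth muscle, was called lower by limma (mean log2 ratio -0.90 ± 0.27, adjusted p = 0.0251). With normexp and an offset of 50 the limma adjusted p of *Actg2* was 0.0892. The summed intensity of the 9 markers was 356319 in the control and 329554 in the cyclopamine pool on replicate 1, and 93995 and 58333 on replicate 2. Of the adipocyte markers, 4 of 5 were tested and all 4 were lower on both arrays (median -0.79). *Cidec*, of a lipid droplet protein, was called lower by limma (mean log2 ratio -1.25 ± 1.12, adjusted p = 0.00216). With normexp and an offset of 50 these values of *Cidec* were -0.29 and 0.666. *Adipoq*, of the hormone adiponectin, was past the filter at -0.75 ± 0.15. On replicate 2 *Cidec* was dim, at 7.56 and 1.83, as was *Plin1*, at 17.9 and 7.93, control first. *Fabp4*, the brightest of the 4, had a mean log2 ratio of -0.25. The summed intensity of the 4 adipocyte markers was 47883 and 39468 on replicate 1 and 8422 and 7051 on replicate 2, while *Lep* was not well above background. The part of these cell types in the ratios of the BMP response genes was not tested.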

How the data were processed

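Ureter explants were profiled on 2 two-colour Agilent arrays of 157716 spots each. Groups, sexes and dyes came from the sample labels, and the labels give DMF as the solvent where the methods of the study name ethanol. Per the file headers, the spot intensity of each channel was background-subtracted and dye-balanced by Agilent Feature Extraction 12.2.0.7, whereas the submitters' notes name version 10.7.3.1. The deposited log10 ratio of red over green and the deposited series table, a score that the values show to be a signed fold change, served as a check of direction and as an alternative. The spot flags are the authors' deposited software output.

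Spots with an outlier flag (2.89% and 3.15%) were left out, the remaining spots of a probe were averaged on the log2 scale, and each gene was read from its brightest probe. A total of 28328 probes were named through RefSeq accessions. Array brightness differed, with control intensities at percentile 75 of 3322 (replicate 1) and 621 (replicate 2), and 64.6% to 69.9% of spots were well above background. Log2 ratios were fitted with limma 3.58.1 in R 4.3.3 (dye orientation as +1 and -1, Benjamini-Hochberg adjustment over 25975 probes, limit 0.05). With 1 residual degree of freedom per probe, the variance rested mostly on the prior (51.9 degrees of freedom), so that precision is limited by there being 2 arrays. The pools are separate RNA samples, of one per sex and treatment. Probe positions were taken from the array annotation (mm9), which names no exon or UTR for them. Gene lengths and promoter windows are RefSeq's on GRCm38. The length trend was a loess curve (span 0.5) along log10 length. The fit was tested on simulated data.

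The 9 genes and all lists were chosen with earlier results of these data known. Of the lists, genes were named where limma called them or the 1.5-fold filter passed them, with up to 2 more per list by size of the mean ratio among those with one sign on both arrays, and *Gli1*, *Ptch1*, *Bmp4* and *Gata6* in any case. One gene that this rule names is not reported here. The filter follows the limits of the study, whose intensity scale is not stated.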

Additional observations from a re-analysis of the deposited data

Results flagged for a closer look

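Some list medians had opposite signs on the 2 arrays, above 0 on replicate 1 (female pools) and below 0 on replicate 2 (male pools). With 1 array per sex the difference was not tested, and sex, dye orientation and replicate cannot be told apart. The correlation of the ratio with gene length also differed between the arrays (Spearman's rho of 0.44 and 0.035). Genes over 100000 bp, among them *Tcf4* and *Tcf12*, had medians of 0.31 on replicate 1 and -0.037 on replicate 2. The part of gene length in the list medians was not tested. The gap between the arrays was 0.61 (log2) for the E protein genes, with medians of 0.50 and -0.12. It was 0.36 for the leukocyte markers (0.21 and -0.15), 0.28 for the endothelial markers (0.11 and -0.17) and 0.25 for the BMP receptors and receptor-activated SMADs (0.19 and -0.060). For the other BMP response genes it was 0.094, from 0.020 to -0.074. As measured, the *Id*, inhibitory SMAD and MSX genes had no such change of sign. With the length trend removed, *Id2*, *Id4* and *Msx2* lay above 0 on replicate 1 and below 0 on replicate 2.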

How the results depend on the processing

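None of the 8 tested BMP response genes was called by limma in the 9 alternatives with a test, in which the lowest adjusted p was 0.104, for *Id1*, and the highest 0.9996. Without the pairing of the pools within an array (no replicate block, the 4 channels as separate samples) limma called 0 genes lower and 0 higher over all genes, with 245 and 194 at an unadjusted p under 0.05, and 0 BMP response genes. Over all genes the count of lower and higher calls was 168 and 85, and it was 35 and 11 with normexp and an offset of 50, 103 and 46 with an offset of 10, 0 and 0 on the series table values (660 and 695 unadjusted), 218 and 152 without the filter on dim probes and 226 and 173 with the length trend removed. The count of BMP response genes lower on both arrays, 8 as reported, was 6 on the series table values, and 0 were higher on both there. With the length trend removed it was 5, the median over all 8 was -0.18, and *Msx2* turned to 0.018. The filter of 1.5-fold passed 1 gene, *Id1*, when applied to the mean ratio, and 1 gene on either single array, *Id2* without replicate 1 and *Id1* without replicate 2. All 8 were lower on each single array, with a median of -0.31 without replicate 1 and -0.26 without replicate 2. The other 87 values of single BMP response genes under the alternatives kept their direction. *Zfp423* was not called with normexp and an offset of 50, over the mean of its probes, on the series table values or without the block. Of the 5 SHH targets called, 3 were called with normexp and an offset of 50 and 0 on the series table values or without the block. *Bmp4* was called when the prior followed intensity, with flagged spots kept, over all probes of a gene and with the length trend removed. The cause of these changes was not tested.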

Other observations

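Cell types of the inner ureter and its vessels gave no call by limma. Of 11 urothelial markers, 7 were higher and 0 lower in the cyclopamine pool on both arrays (median log2 ratio 0.14). Of all tested genes, 28.6% were higher on both. The brightest probe of *Trp63*, of a factor of basal epithelial cells, was at 0.47 ± 0.30. The further probes of *Trp63* gave mean ratios of 0.18, 0.13 and -0.50. The uroplakin genes of the superficial cells were split, with *Upk1b* at 0.27 ± 0.04 and *Upk3a* at 0.14 ± 0.01 higher on both arrays, and *Upk1a*, *Upk2* and *Upk3b* of opposite sign on the 2 arrays. Of 9 endothelial markers, 4 were lower and 1 higher on both arrays (median -0.069). Of 7 leukocyte markers, 2 were lower and 1 was higher, and of 6 tested glial and neuronal markers 2 and 2. Of 7 kidney tubule markers 2 were tested, and their summed intensity was 116 and 195 on replicate 1 and 47.7 and 55.8 on replicate 2, control first. The uroplakin genes, *Fabp4* and the smooth muscle markers of opposite sign were named after their values were seen.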
